A study of Drosophila melanogaster with 6 samples.

Results

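The genes examined here were the 5 metallothioneins of *Drosophila melanogaster* (*MtnA*, *MtnB*, *MtnC*, *MtnD* and *MtnE*), the copper importers *Ctr1A* and *Ctr1B*, the copper exporter *ATP7* and *MTF-1*, the metal-responsive transcription factor. They were chosen by name, with earlier results of these data known. Each of the 9 genes had a row of its own among the 14540 rows of the expression table. The table came from RNA-seq of SIN3 187HA cells and of S2 cells, with 3 biological replicates of each. S2 cells are a line of cultured cells derived from late embryos. SIN3 187HA cells are S2 cells with a stably transfected transgene for an HA-tagged isoform of the corepressor SIN3, after which the line is named. The transgene is driven by a metallothionein promoter, which copper switches on. The labels give the genotype of both groups as wild type, and both groups received CuSO4 at 0.07 µM per the labels, for 48 h where a label gives the time (replicate 1 of each group). The study's methods give the same figure in another unit of concentration, so the dose is uncertain. The comparison is therefore between cells with and without the transgene in the presence of copper, and copper itself was not varied. The SIN3 187HA line was also grown with Geneticin and penicillin/streptomycin, per the study's methods, whereas S2 cells received gentamycin; the labels name gentamycin for both. The sources used here do not say whether the line is 1 clone or a pool.

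Metallothioneins are small, cysteine-rich proteins that bind copper, zinc and cadmium and buffer the cell against an excess of these metals. In flies, MTF-1 enters the nucleus under metal load, binds metal response elements in the promoters of the metallothionein genes and activates them. Copper enters cells through the Ctr1 family, of which Ctr1A serves general uptake and Ctr1B serves uptake when copper is scarce. ATP7 pumps copper into the secretory pathway and out of the cell. Copper-fed S2 cells are a common setting for this response, since the same promoter type is used to switch on transgenes in them.

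The deposited values are FPKM (fragments scaled to transcript length and to sequencing depth), 1 value per gene and group, in which the authors combined the 3 replicates. No value per replicate could be given, no test of the groups was run here, and every difference below is a ratio of 2 combined values without an error. Ratios are log2 of the FPKM in SIN3 187HA cells over that in S2 cells. A row was called higher or lower when its mean FPKM over the groups was at least 1 and its ratio was at least 2-fold. Of the 8093 rows past this filter with a value above 0 in both groups, 12.6% were called higher in SIN3 187HA cells and 12.1% were called lower, and the median log2 ratio was -0.04. If the smallest spacing of low values stands for 1 fragment in 1 of 3 libraries, depth was about 15900000 fragments per library in SIN3 187HA cells and 15300000 fragments per library in S2 cells. *Sin3A*, the overexpressed gene on chromosome arm 2R, had 2319 FPKM in SIN3 187HA cells and 56.9 FPKM in S2 cells, 40.8-fold higher in the line that carries the transgene. S2 cells resemble hemocytes, the blood cells of the fly. Of 10 hemocyte markers, 9 passed the filter, 3 were called higher (*ush*, *Pvr*, *Ppn*) and 4 lower (*Pxn*, *NimC1*, *eater*, *Sr-CI*). The lower ones included large differences: *eater* had 2.30 FPKM in SIN3 187HA cells and 50.2 FPKM in S2 cells, and *Sr-CI* had 3.32 FPKM and 84.6 FPKM. The summed level of the 10 was 851 FPKM in SIN3 187HA cells and 716 FPKM in S2 cells. The largest part of it was *Pvr*, with 414 FPKM in SIN3 187HA cells and 183 FPKM in S2 cells. The rows of *ush* and *srp* are each shared with another gene. The GATA factor *srp* had 77.0 FPKM in SIN3 187HA cells and 86.9 FPKM in S2 cells, while the hemocyte marker *Hml* had 0.676 FPKM in SIN3 187HA cells and 0.520 FPKM in S2 cells and did not pass the filter. Of 17 matched markers of other cell types, 14 were below the filter. The exceptions were the neuronal marker *elav* with 6.74 FPKM in SIN3 187HA cells and 2.39 FPKM in S2 cells, the germ line marker *bam* with 3.64 FPKM in SIN3 187HA cells and 2.07 FPKM in S2 cells, and the lamellocyte marker *PPO3*, whose row is shared with another gene. Of the fat body markers, *Lsp2* had 0.0603 FPKM in SIN3 187HA cells and 0.0468 FPKM in S2 cells, and *Fbp1* had 0.00614 FPKM in SIN3 187HA cells and 0.0510 FPKM in S2 cells. *Lsp1alpha* was listed at 0 in SIN3 187HA cells and *tj*, of the somatic ovary, was listed at 0 in S2 cells. The part of these differences between the lines in the results below was not tested.

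Of the 9 genes, 8 passed the filter. *MtnB* and *Ctr1B* were called higher, 2 of the 8, beside 12.6% of all rows, and 0 were called lower, beside 12.1% of all rows. *Ctr1B* passed the filter only through its level in SIN3 187HA cells, since its S2 value lies below 1 FPKM. The other 6 lay within 2-fold, and the signs of the ratios were split evenly, 4 positive and 4 negative. The median log2 ratio of the 8 genes was 0.01, against -0.04 over all rows past the filter. In RNA from whole cultures, fewer cells that express a gene and less RNA per cell cannot be told apart.

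**Figure D1:**
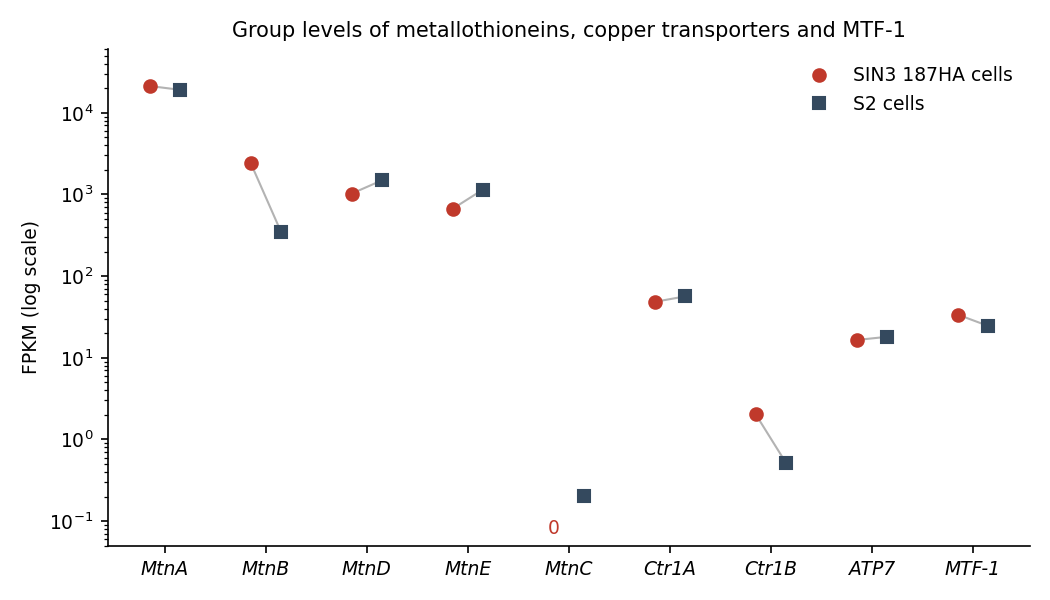
FPKM of each gene in SIN3 187HA cells (circles, left) and S2 cells (squares, right) on a log scale, 1 combined value per group and no error. *MtnB* had 2426 FPKM against 349 FPKM, *Ctr1B* had 2.04 FPKM against 0.518 FPKM, and the red 0 marks that *MtnC* was listed at 0 in SIN3 187HA cells.

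*MtnA* was the most abundant of the 9 transcripts in both groups. It had 21275 FPKM in SIN3 187HA cells and 19120 FPKM in S2 cells, a log2 ratio of 0.15. It ranked 1 among all rows in SIN3 187HA cells and 2 in S2 cells, where only *Nplp2*, with 24797 FPKM, lay above it. Its ratio lay above those of 61.8% of the rows past the filter, so *MtnA* was extreme in level and not in ratio. *MtnA* lies on chromosome arm 3R of dm3 from 5609129 to 5610092, 10.6 Mb from *MtnC*, the nearest of the other metallothioneins.

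*MtnB* was the metallothionein with the largest difference. It had 2426 FPKM in SIN3 187HA cells and 349 FPKM in S2 cells, a 6.95-fold higher level with a log2 ratio of 2.80. In 93.1% of rows past the filter the ratio lay closer to 0. By level it ranked 68 among all rows in SIN3 187HA cells and 290 in S2 cells.

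*MtnD* and *MtnE* went the other way, though neither reached 2-fold. *MtnD* had 1024 FPKM in SIN3 187HA cells and 1489 FPKM in S2 cells, with a log2 ratio of -0.54. *MtnE* had 667 FPKM in SIN3 187HA cells and 1148 FPKM in S2 cells, with a log2 ratio of -0.78. These genes lie head to head, with 257 bp between their starts, and *MtnD* stood at 1.53 times the FPKM of *MtnE* in SIN3 187HA cells and at 1.30 times in S2 cells.

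*MtnC* was hardly detected. It was listed at 0 in SIN3 187HA cells and had 0.206 FPKM in S2 cells, where the estimated depth translates this into 0.214 fragments per library, less than 1 fragment over the 3 libraries. It did not pass the filter, and no ratio is given.

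The order of the family therefore differed between the groups. In SIN3 187HA cells the levels ran *MtnA*, *MtnB*, *MtnD*, *MtnE*, and in S2 cells *MtnA*, *MtnD*, *MtnE*, *MtnB*. *MtnB* stood at 3.63 times the FPKM of *MtnE* in SIN3 187HA cells and at 0.304 times in S2 cells. Whether neighbours in either order differ beyond the spread of replicates could not be tested. The transcripts of all 5 genes are short (268 to 700 nt in the BDGP6 annotation), which makes the length correction of FPKM coarse. This bears on the order of the genes within a group, and also on the ratios of *MtnA*, *MtnB* and *MtnE*, which have more than 1 transcript, if the use of transcripts differs between the groups; this was not tested.

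Summed over the family, metallothionein FPKM was 25392 in SIN3 187HA cells and 22107 in S2 cells, a 1.15-fold higher level with a log2 ratio of 0.20. This was 3.21% of all FPKM of the table in SIN3 187HA cells and 2.71% in S2 cells. *MtnA* made up 83.8% of the family total in SIN3 187HA cells and 86.5% in S2 cells. The share of *MtnB* was 9.55% in SIN3 187HA cells and 1.58% in S2 cells. *MtnD* and *MtnE* were the smaller part of the family in SIN3 187HA cells: *MtnD* made up 4.03% in SIN3 187HA cells and 6.74% in S2 cells, and *MtnE* made up 2.63% in SIN3 187HA cells and 5.19% in S2 cells. Without *MtnB* the family total was 22966 FPKM in SIN3 187HA cells and 21758 FPKM in S2 cells, a 1.06-fold difference. The family total thus differed less between the lines than *MtnB* did.

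**Figure D2:**
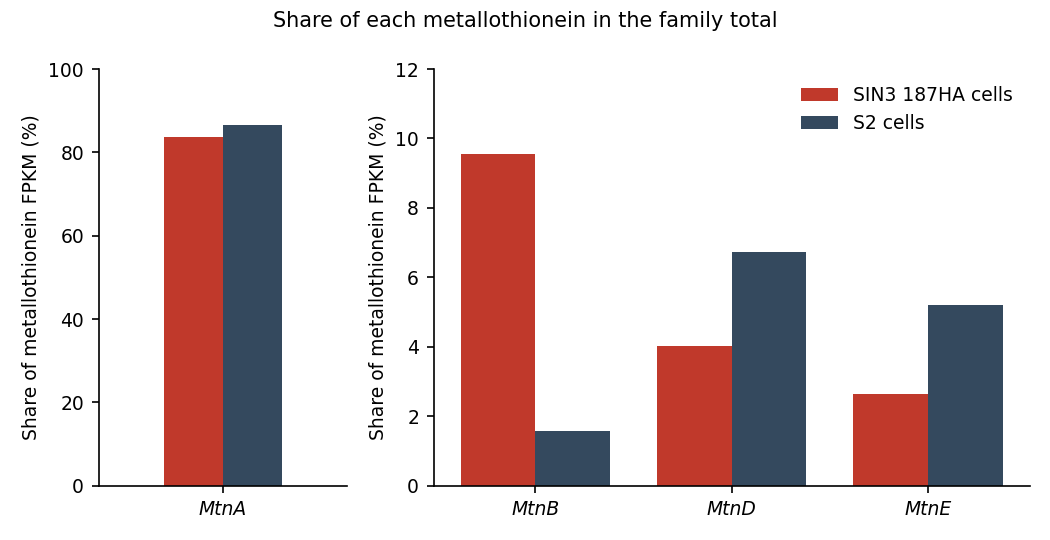
Share of each metallothionein in the summed FPKM of the family (%), in SIN3 187HA cells (left bars) and S2 cells (right bars), with a separate scale for *MtnA*. *MtnB* made up 9.55% in SIN3 187HA cells against 1.58% in S2 cells, while *MtnD* and *MtnE* were smaller shares in SIN3 187HA cells.

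The copper importers were far apart in level. *Ctr1A*, the general importer, lies on the X chromosome of dm3 from 6555680 to 6562291 and had 48.4 FPKM in SIN3 187HA cells and 56.4 FPKM in S2 cells, a log2 ratio of -0.22. *Ctr1B* lies on chromosome arm 3R and had 2.04 FPKM in SIN3 187HA cells and 0.518 FPKM in S2 cells, a 3.94-fold higher level with a log2 ratio of 1.98. *Ctr1A* stood at 23.7 times the FPKM of *Ctr1B* in SIN3 187HA cells and at 109 times in S2 cells, so *Ctr1A* was the main importer transcript in both. The third member of the family, *Ctr1C*, was listed at 0 in both groups.

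The value of *Ctr1B* rests on few reads. The estimated depth translates it into 24.4 fragments per library in SIN3 187HA cells and 5.97 fragments per library in S2 cells. With 1 FPKM added to both groups, the log2 ratio was 1.00. Its end also overlaps that of *Poxm*, which runs on the opposite strand, by 181 bp in the BDGP6 annotation, and the authors' locus from 4143337 to 4159514 joins both genes with *Or85a* and *CG7443*. *Poxm* had 2.25 FPKM in SIN3 187HA cells and 0.585 FPKM in S2 cells, a log2 ratio of 1.94, almost that of *Ctr1B*. *Or85a*, an odorant receptor gene, had 0.590 FPKM in SIN3 187HA cells and 0.114 FPKM in S2 cells. The counting is not stated to use strand, so reads of the shared stretch cannot be told apart, and the part of this overlap in the ratio of *Ctr1B* was not tested.

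*ATP7*, on the X chromosome from 11749055 to 11758517, differed little. It had 16.5 FPKM in SIN3 187HA cells and 18.0 FPKM in S2 cells, a log2 ratio of -0.13, the smallest in size among the 8 genes past the filter. The level of *Ctr1A* was 2.93 times that of *ATP7* in SIN3 187HA cells and 3.12 times that of *ATP7* in S2 cells.

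*MTF-1*, on chromosome arm 3L from 9423412 to 9435367, had 33.8 FPKM in SIN3 187HA cells and 24.6 FPKM in S2 cells, a log2 ratio of 0.46 and 1.37-fold higher. It remained within 2-fold. The authors' locus also holds *CG42526* and a row shared by *Bet3* and *Nf-YA*, and *MTF-1* overlaps *Bet3*, on the opposite strand, by 1009 bp in the BDGP6 annotation, and *CG42526*, also on the opposite strand, by 1714 bp. *CG42526* had 5.25 FPKM in SIN3 187HA cells and 3.29 FPKM in S2 cells. The *Bet3* and *Nf-YA* row had 34.4 FPKM in SIN3 187HA cells and 24.5 FPKM in S2 cells, close to *MTF-1* in both level and ratio. The part of the overlap in these values was not tested.

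To see each gene against its surroundings, its ratio was set beside those of the 12 nearest rows past the filter on each side, without the other copper genes and without rows that overlap it. The gene minus the median of these 24 rows is a difference on the log2 scale. The surroundings of *MtnB*, *MtnE* and *MtnD* were low in SIN3 187HA cells. These genes lie with *MtnC* in a stretch of 175 kb on chromosome arm 3R, *MtnC* from 16186030 to 16186356, *MtnB* from 16328960 to 16329340, *MtnE* from 16360001 to 16360426 and *MtnD* from 16360684 to 16361023. The 24 rows around the cluster had a median log2 ratio of -1.39, and 22 of them lay below 0. Of the 24, 13 were called lower and 0 higher, beside 12.1% and 12.6% of all rows. The 12 rows on the side of *MtnD* had a median of -1.66, and those on the side of *MtnC* had one of -0.60. On the side of *MtnC* the nearest rows were low as well: *Sirt2* (-1.84), *CG4360* (-1.42), *CG42668* (-1.40) and *CG4362* (-0.98). The rows farther out on that side ran from *CG4390* (-0.72) to *cic* (0.08).

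The nearest rows set beside *MtnB* lay 31704 bp away on the side of *MtnD* and 173208 bp away on the side of *MtnC*. The 24 rows spanned 559 kb, so they are not its immediate surroundings. *MtnB* lay 4.19 above the median of these neighbours, and 24 of the 24 neighbours had a lower ratio. *MtnD* lay 0.85 above the same median and *MtnE* 0.61 above it, with 16 of the 24 neighbours below *MtnD* and 14 below *MtnE*. The gene next to *MtnD*, *Stat92E*, which encodes the STAT transcription factor, ends 21 bp away on the opposite strand. It had 73.9 FPKM in SIN3 187HA cells and 237 FPKM in S2 cells, a log2 ratio of -1.68. On the other side the nearest row past the filter was *Sirt2*, a deacetylase gene 30278 bp from *MtnC*, with 12.6 FPKM in SIN3 187HA cells and 45.1 FPKM in S2 cells. The lowest ratios around the cluster were those of *CG5191* (-2.41), *CG5412* (-1.89) and *Sirt2* (-1.84), and the highest were those of *CG10877* (0.96), *cic* (0.08) and *CG4854* (-0.11), all on the log2 scale.

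Between *MtnC* and *MtnE* little else was expressed. The 6 other rows of this interval did not pass the filter, and their highest level was 1.28 FPKM in SIN3 187HA cells and 0.119 FPKM in S2 cells. Both of these values belonged to *Or92a*, an odorant receptor gene between *MtnB* and *MtnE*, singled out here once its values were known. Its log2 ratio was 3.43, the only one inside the interval that was as high as that of *MtnB*. Since *Or92a* is below the filter and its S2 value is very low, the size of this ratio is uncertain.

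**Figure D3:**
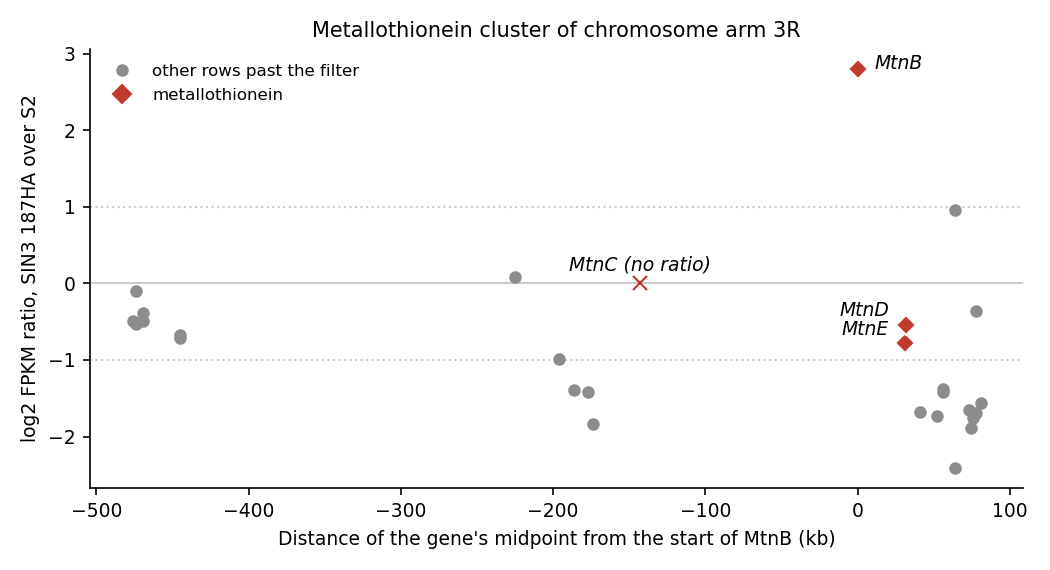
Log2 FPKM ratio (SIN3 187HA over S2) of rows past the filter around the metallothionein cluster, by distance of the gene's midpoint from the start of *MtnB* in kb; dotted lines mark 2-fold and the cross marks the place of *MtnC*, which has no ratio. *MtnB* lies at 2.80 while the 24 flanking rows have a median of -1.39.

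The other genes lay closer to their surroundings, with *Ctr1B* as the exception. *Ctr1B* lay 2.22 above the median of its 24 neighbours (-0.24), and 21 of the 24 had a lower ratio. The 3 above it went up to 7.48, so high ratios were not unique to *Ctr1B* in this stretch. Like *Ctr1B*, these 3 passed the filter only through their level in SIN3 187HA cells, with at most 0.248 FPKM in S2 cells. Its nearest rows were *Coq2*, of ubiquinone synthesis, with a log2 ratio of 0.86, and *CG9603* with one of -0.44. *MTF-1* lay 0.14 below the median of its neighbours, which was 0.60. Of these neighbours 21 of 24 lay above 0, so a ratio above 0 was common to most genes around *MTF-1*. Of the 24, 7 were called higher and 0 lower, beside 12.6% and 12.1% of all rows. Its nearest rows were *snoRNA:Psi28S-612* (0.97) and *CG33926* (-0.80).

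*MtnA* lay 0.36 above its neighbours, which had a median of -0.21. Its nearest rows included *CR31514* (log2 ratio -0.50) and *CG8500*, with 35.0 FPKM in SIN3 187HA cells and 16.3 FPKM in S2 cells. The locus of *CG8500*, 282 bp away, starts at the same position as that of *CG12945* (log2 ratio -0.30). That of *CR31514* does so with *RpS29* (0.23), *CG12947* (-0.62) and *snoRNA:Psi18S-1275* (-1.76). Which of these genes is nearest to *MtnA* was not resolved. *Ctr1A* lay 0.24 above a median of -0.46, next to *CG3224* (-0.08) and *CG3198* (-0.85). *ATP7* lay 0.09 above a median of -0.21, next to *CG10347* (0.05) and *CG2025* (0.09). For these genes the neighbours spread far more widely than the gene lay from their median.

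**Figure D4:**
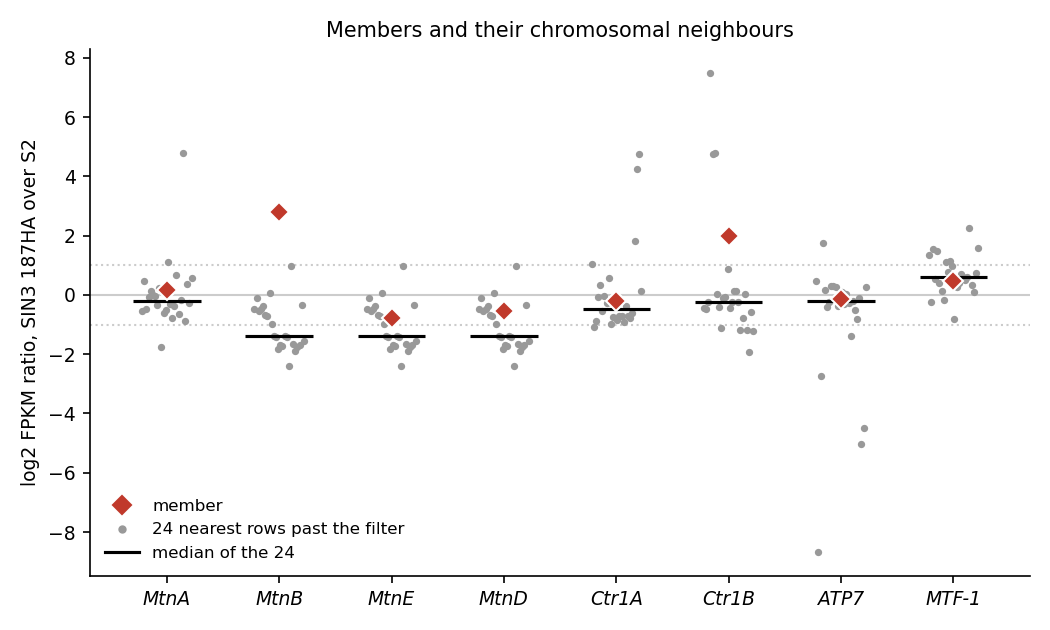
Log2 FPKM ratio (SIN3 187HA over S2) of each gene (diamonds) and of its 24 nearest rows past the filter (dots), with their median (bars); dotted lines mark 2-fold. *MtnB* lies above 24 of 24 neighbours and *Ctr1B* above 21 of 24, while the other genes lie among theirs.

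Other genes of metal handling were taken from a list of 43 genes, of which 41 were matched to rows and 30 passed the filter. Of these, 8 were called higher, 1 was called lower and 21 lay within 2-fold, beside 12.6% higher and 12.1% lower over all rows. The list was chosen with earlier results of these data known, so these counts are a description and do not test enrichment. Their median log2 ratio was 0.15, against -0.04 over all rows past the filter. Of the genes called higher, *Tbh*, *ZnT35C* and *Tsf1* lay below 1 FPKM in S2 cells and passed the filter only through their level in SIN3 187HA cells.

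Among the copper chaperones, 1 of 5 was called higher, beside 12.6% of all rows. *Atox1*, which hands copper to ATP7, had 30.9 FPKM in SIN3 187HA cells and 9.44 FPKM in S2 cells, a log2 ratio of 1.71. The other 4 were *CCS*, the chaperone of superoxide dismutase (-0.28), and *Cox17* (-0.20), *Cox11* (-0.26) and *Scox* (-0.85), which serve cytochrome c oxidase, all given as log2 ratios. *Scox* had 23.4 FPKM in SIN3 187HA cells and 42.4 FPKM in S2 cells. *ATP7*, the partner of Atox1, had a log2 ratio of -0.13.

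The copper enzymes spread widely. *Tbh*, tyramine beta-hydroxylase, had 3.62 FPKM in SIN3 187HA cells and 0.244 FPKM in S2 cells, a log2 ratio of 3.89. *stw*, the laccase that is listed in the table as *laccase2*, had 2.74 FPKM in SIN3 187HA cells and 34.9 FPKM in S2 cells, a log2 ratio of -3.67, and was the single gene of the list called lower. The abundant enzymes *Sod1* (copper/zinc superoxide dismutase) and *Phm* (peptidylglycine monooxygenase) had log2 ratios of -0.15 and -0.17.

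A further 4 genes were listed as targets of MTF-1. *ZnT35C*, which encodes a zinc exporter, had 11.8 FPKM in SIN3 187HA cells and 0.0625 FPKM in S2 cells, a log2 ratio of 7.57, the largest of the list. Its S2 value is so low that the size of this ratio is uncertain. *CG10505*, an ABC transporter gene, was below the filter with 0.733 FPKM in SIN3 187HA cells and 0.204 FPKM in S2 cells. The ferritin genes lay within 2-fold in opposite directions. *Fer1HCH* had 1033 FPKM in SIN3 187HA cells and 1433 FPKM in S2 cells, whereas *Fer2LCH* had 14.8 FPKM in SIN3 187HA cells and 7.85 FPKM in S2 cells.

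Of 16 zinc transporters, 11 passed the filter, and 3 of these were called higher and 0 lower, beside 12.6% and 12.1% of all rows. Counts in groups this small are a description only. *ZnT77C* had 44.7 FPKM in SIN3 187HA cells and 9.88 FPKM in S2 cells (log2 ratio 2.18). *ZnT41F* had 151 FPKM in SIN3 187HA cells and 49.8 FPKM in S2 cells (1.60). *Zip48C* had 37.2 FPKM in SIN3 187HA cells and 15.0 FPKM in S2 cells (1.31). The other 8 lay within 2-fold, 5 above 0, up to *Catsup* at a log2 ratio of 0.48, and 3 below 0, down to *Zip102B* at -0.99. Among 8 iron-handling genes, 6 passed the filter, and 2 of these were called higher and 0 lower, beside the same shares of all rows. Those called higher were the transferrin genes *Tsf1* (1.83 FPKM in SIN3 187HA cells and 0.336 FPKM in S2 cells) and *Tsf3* (25.7 FPKM in SIN3 187HA cells and 11.7 FPKM in S2 cells). *Mvl*, a divalent metal transporter gene, was listed at 0 in SIN3 187HA cells and at 673 FPKM in S2 cells, but the table marks its locus as too deep to be estimated, as it does for *Ef1alpha48D*, so this 0 is not read as a level.

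**Figure D5:**
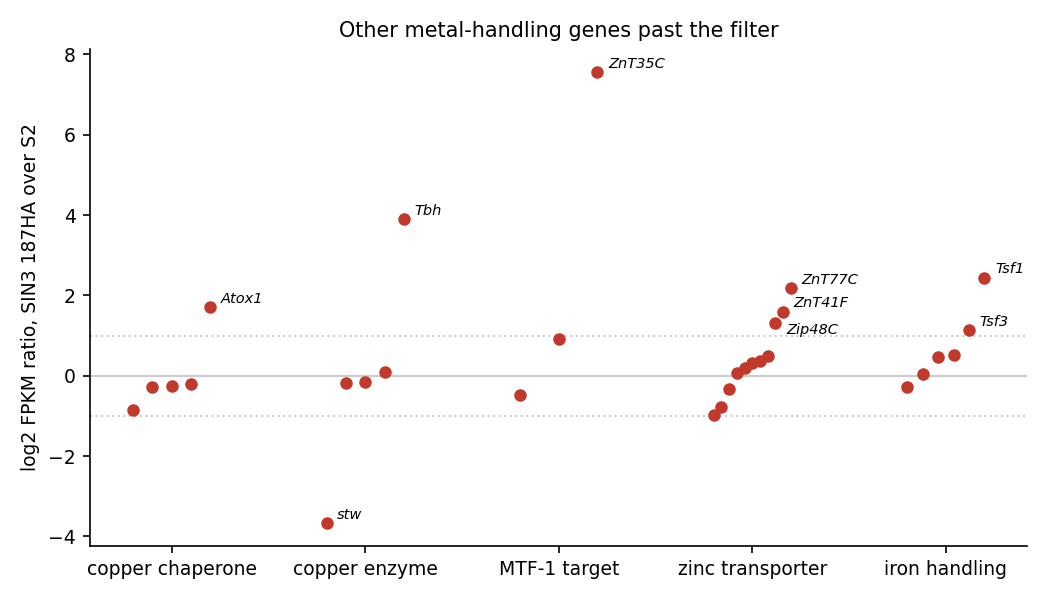
Log2 FPKM ratio (SIN3 187HA over S2) of the 30 metal-handling genes past the filter, by group of the list, with 2-fold marked by dotted lines. The named points are the 8 genes called higher, up to *ZnT35C* at 7.57, and *stw*, called lower at -3.67.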

How the data were processed

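RNA-seq of SIN3 187HA cells and S2 cells (3 replicates each, grouped by sample title) was analysed from 1 table. Per the methods, the authors aligned paired reads (2 x 50 bp) to dm3 with Bowtie2/Tophat, estimated levels over RefSeq genes with Cufflinks and ran cuffdiff at default parameters. Versions are not given in the sources used here. The submitters' processing notes also name bcl2fastq. The deposited FPKM values were combined over replicates by the authors, so the spread and depth of single libraries could not be seen. The table also holds the authors' fold changes, test statistics, p-values and q-values, which were not used. Starts were moved by 1 to count from 1.

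Ratios had no pseudocount. Rows marked HIDATA (3) were left out of the ratios and calls. They stayed in the ranks and in the summed FPKM of all rows. There *Ef1alpha48D* (5547 FPKM) and *Mvl* (673 FPKM) counted in S2 cells but were listed at 0 in SIN3 187HA cells. Depth was estimated from the lowest step of FPKM times length (up to 0.03) over genes with 1 transcript above 1500 nt in Ensembl BDGP6, a later build used for lengths, strands and overlaps only, taking 200 nt fragments. Of 71 listed genes, 44 matched by symbol, 24 by a RefSeq (Release 6) synonym or another spelling, and 3 not at all. Matching by synonym in reverse and by other spelling was added after a first matching was seen. Members and lists were chosen with earlier results of these data known. Named genes were all members, *Sin3A*, listed genes past 2-fold, copper chaperones, MTF-1 targets, the nearest neighbours and the 3 lowest and highest rows around the cluster. Further listed genes within 2-fold, *Or92a*, further rows on the *MtnC* side of the cluster, top-ranking, marker and overlapping genes fell outside this rule. So did rows whose locus starts at the same position as that of a nearest neighbour. They were chosen with their values known. Other pseudocounts, filters, scalings, fold limits and neighbour numbers were tried. The intended promoter and protein comparisons were not run, as no sequences were used here. Python 3.11.15, numpy 2.4.6, pandas 2.3.3 and matplotlib 3.10.9 were used, and the procedures were tested on simulated data.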

Additional observations from a re-analysis of the deposited data

How the results depend on the processing

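Of 71 alternative values, 67 stayed within 1.5 times of the reported value, and ratios among them on the same side of the 2-fold limit, and 4 did not. The log2 ratio of *Ctr1B* was 1.00 with 1 FPKM added, a shift of over 1.5-fold that left it at the 2-fold limit and still called. The number of members called higher was 1 with a mean FPKM of at least 5, since *Ctr1B* then failed the filter. The number called lower was 1 at a 1.5-fold limit (*MtnE*). The share of all rows called higher was 19.4% without a filter. Many of the 67 values that stayed had little room to move. Centring and rescaling shift all ratios alike by a small amount, and added FPKM hardly changes abundant genes. The neighbour medians of *MtnB*, *MtnC*, *MtnD* and *MtnE* rest on the same rows and were counted for each gene. The number that stayed is therefore no measure of robustness. The log2 ratio of *MtnB* was 2.79 with 1 FPKM added. With 6 or 25 rows on each side, the median around the cluster was -1.40 and -1.15. The alternatives for promoter motifs were not run. No paired analysis was possible because the deposited columns carry no replicate, and for the same reason no replicate could be left out. At the estimated depth, *MtnC* lies where single fragments matter, and *Ctr1B* rests on few fragments, 5.97 per library in S2 cells.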
